A study of Homo sapiens with 18 samples.

Results

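The EGF-family ligands and receptors considered here were 9 genes, chosen by name: the ligands HBEGF, AREG, EREG, TGFA and NRG1 and the receptors EGFR, ERBB2, ERBB3 and ERBB4. They were 9 of 23925 genes with a count, and 8 of them were among the 15519 genes that passed the filter on low counts and were tested. EREG stayed under 10 counts in every library, with 6 at most, and is reported as not expressed. The libraries were made from HEK293 cells, a human embryonic kidney line, either wildtype, β-arrestin1/2 KO (depleted of β-arrestin1 and β-arrestin2 with CRISPR-Cas9) or Gαs KO (depleted of Gαs the same way). All 6 groups, controls included, had been transiently transfected with a plasmid for the wildtype β2-adrenergic receptor (β2AR) and serum starved overnight, and 48 h after transfection they received vehicle (basal) or 1 μM of the β-agonist isoproterenol for 1 h. Each group had 3 biological replicates, so 18 libraries were compared. Whether the KO lines were single clones is not given in the sources used here, and differences between cell lines cannot be told apart from differences between clones.

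The EGF-family ligands are made as membrane-bound precursors that metalloproteases cut to release the active growth factor. HBEGF, AREG, EREG and TGFA bind EGFR, HBEGF and EREG also bind ERBB4, and NRG1 binds ERBB3 and ERBB4. The receptors act as pairs: ERBB2 has no ligand of its own and serves as the preferred partner, and ERBB3 has little kinase activity and signals through its partner. G protein-coupled receptors can activate EGFR by promoting ligand release, and several ligand genes are known as rapid targets of cAMP and ERK signaling, so the libraries show whether their transcripts changed 1 h after β2AR stimulation and whether that required Gαs or the β-arrestins.

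The targeted genes were read first. GNAS, which encodes Gαs, fell by 4.32 on the log2 scale (SE 0.15) in basal Gαs KO cells against wildtype, from a mean of 1317 to 66.0 CPM (counts scaled to a common library size), and its adjusted p was 9.4e-12 (edgeR). ARRB2 fell by 2.25 (SE 0.15) in basal β-arrestin1/2 KO cells (adjusted p = 2.6e-08, edgeR), whereas ARRB1 was at 41.0 CPM against 49.6 in wildtype cells and did not pass the test (adjusted p = 0.14, edgeR). A CRISPR edit can remove a protein and leave its transcript, so the ARRB1 level does not check the label. Without the first basal wildtype library these values were -4.06, -1.98 and -0.02 for GNAS, ARRB2 and ARRB1. ARRB2 was also called lower in basal Gαs KO than in wildtype cells (edgeR). That call was lost without the same library (-0.16, adjusted p = 0.11, edgeR). Without it GNAS was called higher in basal β-arrestin1/2 KO than in wildtype cells (0.54, adjusted p = 9.2e-07, edgeR), beside 46.7% of all genes. In β-arrestin1/2 KO cells GNAS and ARRB2 were then called lower after isoproterenol (-0.38 and -0.28, adjusted p = 0.00015 and 0.04, edgeR), beside 11.7%. With all libraries these calls were not made. All 7 HEK293 markers were detected and summed to 1034 to 1190 CPM in basal wildtype, 1854 to 1935 in Gαs KO and 905.3 to 995.6 in β-arrestin1/2 KO libraries. The sum was led by VIM (618.4 to 1509 CPM over all libraries), followed by NEFL (86.91 to 344.4). Single markers differed between the basal lines in both directions. Against wildtype, INA, NEFL and NEFM were called higher and VIM lower in β-arrestin1/2 KO cells, and NEFL and VIM higher in Gαs KO cells. Between the KO lines INA was higher and NEFL and VIM were lower in β-arrestin1/2 KO cells (edgeR). Of the markers of other cell types, the leukocyte markers PTPRC and CD3E and the fibroblast markers COL1A2 and DCN reached at most 4 counts, and the squamous markers KRT5, KRT14 and TP63 at most 12. The leukocyte marker CD68 was at 13.7 ± 4.0 CPM (SD, n = 3) in basal wildtype, 5.51 ± 0.58 in Gαs KO and 4.20 ± 0.99 in β-arrestin1/2 KO cells, while CD3E was at 0 in every library. The 3 endothelial markers summed to 2.32 to 8.76 CPM and the 3 fibroblast markers to 0.109 to 2.20 CPM over the basal libraries. The fibroblast marker LUM had 1 to 44 counts. It was higher in basal Gαs KO than in wildtype cells by 2.13 on the log2 scale (adjusted p = 0.0056; 1.61 and 0.0066 without the first wildtype library), and lower in β-arrestin1/2 KO than in Gαs KO cells at a difference of -1.50 (adjusted p = 0.035; -1.49 and 0.0036 without it, edgeR). The part of these differences in the results was not tested. Library totals ran from 17908597 to 25019834. The first basal wildtype library stood apart: the mean GC content of its counted transcripts was 52.12%, against 49.06 to 49.93% in the other 17, and the value without it is given beside many of the results. All groups share 1 estimate of the spread, and without this library the SE of the EGFR response in Gαs KO cells, a comparison that does not contain it, was 0.06 in place of 0.11.

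The promoter windows of HBEGF and AREG are shown because their values were higher after isoproterenol in all 3 β-arrestin1/2 KO libraries, and that of EGFR because EGFR was called in 2 of the 3 basal comparisons between lines. Each run holds the 250 bases before the RefSeq start site (GRCh38.p14), 5′ to 3′ on the strand of the gene, and capitals mark a cAMP response element (CRE).
AREG, chr4:74444886-74445135, plus strand: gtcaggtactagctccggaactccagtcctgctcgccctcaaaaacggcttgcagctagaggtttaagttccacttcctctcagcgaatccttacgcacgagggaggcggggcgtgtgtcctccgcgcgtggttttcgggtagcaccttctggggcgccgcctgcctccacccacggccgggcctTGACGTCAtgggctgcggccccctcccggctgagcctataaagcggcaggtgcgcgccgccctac
HBEGF, chr5:140346604-140346853, minus strand: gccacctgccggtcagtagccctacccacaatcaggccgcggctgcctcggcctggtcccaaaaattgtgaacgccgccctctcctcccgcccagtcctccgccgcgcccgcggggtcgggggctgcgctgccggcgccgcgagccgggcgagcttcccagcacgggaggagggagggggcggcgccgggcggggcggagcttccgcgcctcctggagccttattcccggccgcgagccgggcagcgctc
EGFR, chr7:55018767-55019016, plus strand: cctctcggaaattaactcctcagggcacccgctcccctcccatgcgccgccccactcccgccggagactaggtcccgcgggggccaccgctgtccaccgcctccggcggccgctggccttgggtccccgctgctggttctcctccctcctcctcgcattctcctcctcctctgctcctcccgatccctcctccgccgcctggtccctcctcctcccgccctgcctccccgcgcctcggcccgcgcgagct

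The 5 motifs searched belong to factors that act downstream of cAMP and ERK. They were looked for on both strands in 9 windows of 300 bases, 250 before and 50 from the start site on, of 7 members. No window of NRG1 or ERBB3 was searched. The full CRE, TGACGTCA, was present in the AREG window only, 65 to 58 bases before the start site, and in 1.85% of all 35116 windows of this length. The short CRE form TGACG, which the full CRE contains, was also present in 1 of the TGFA windows, from position -154 to -150, and in the EREG window, from -125 to -121. That form was in 24.6% of all windows. The AP-1 motif TGANTCA was found 2 times in the window of the downstream EGFR start and 1 time in that of ERBB2, from -222 to -216, against 7.71% of all windows. The EGR motif GCGTGGGCG and the CArG box, in 0.795 and 1.29% of all windows, were in none of the 9. The HBEGF window and that of the upstream EGFR start held none of the 5 motifs. A match is a stretch of letters and no evidence of binding.

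The members are placed here by GENCODE release 29 (GRCh38). HBEGF is at chr5:140332843-140346631 on the minus strand. AREG and EREG are neighbors on chromosome 4, at 74445134-74455009 and 74365143-74388751 on the plus strand. TGFA (70447280-70554193) and ERBB4 (211375717-212538841) are both on the minus strand of chromosome 2. EGFR is at chr7:55019021-55211628, ERBB2 at chr17:39687914-39730426 and ERBB3 at chr12:56076799-56103505, all on the plus strand, and NRG1 is on chromosome 8. Exons of EGFR share 186 of their 12521 bases with the antisense gene EGFR-AS1, and those of ERBB2 share 571 and 194 of 10321 bases with MIEN1 and PGAP3 on the opposite strand. Exons of ERBB3 share 31 of 9039 bases with AC034102.2 on the same strand. That gene had 0 to 374 counts per library, beside 56 to 255 for ERBB3. Whether the counting used strand is not given in the sources used here, so reads from these stretches cannot be assigned with certainty.

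Compared per transcript length, as TPM (counts per base of transcript, scaled to a common total), the receptors were led by ERBB2 and EGFR and the ligands by HBEGF. In basal wildtype cells the level of ERBB2 was 34.0 ± 7.0 TPM (SD, n = 3), that of EGFR 8.37 ± 2.21 and that of HBEGF 7.32 ± 2.37. ERBB2 was above EGFR in every library of every group. EGFR and HBEGF overlapped in basal wildtype and basal β-arrestin1/2 KO cells, and their order turned to HBEGF above EGFR in isoproterenol-treated wildtype cells, with 10.9 ± 1.1 against 8.30 ± 0.32 TPM and no overlap. HBEGF also had the higher mean in isoproterenol-treated β-arrestin1/2 KO cells, but the ranges overlapped. In both Gαs KO groups EGFR stayed above HBEGF, with 16.2 ± 0.3 against 6.97 ± 0.46 TPM at basal.

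The remaining members were all below 6 TPM. ERBB3 and ERBB4 were at 1.57 ± 0.26 and 1.22 ± 0.28 TPM in basal wildtype cells and overlapped there, but in basal β-arrestin1/2 KO cells ERBB3 was at 5.00 ± 0.69 TPM, above every ERBB4 value. NRG1 was last in isoproterenol-treated wildtype cells, at 0.0519 ± 0.0559 TPM, and overlapped EREG there. In basal Gαs KO cells it ranked 4 of 9 at 2.61 ± 0.46 TPM and overlapped ERBB3. TGFA and AREG stayed at or under 1.40 TPM in every library. Taking the longest transcript as the length changed 6 of 54 ranks, and summing protein-coding transcripts only changed 2.

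**Figure D1:**
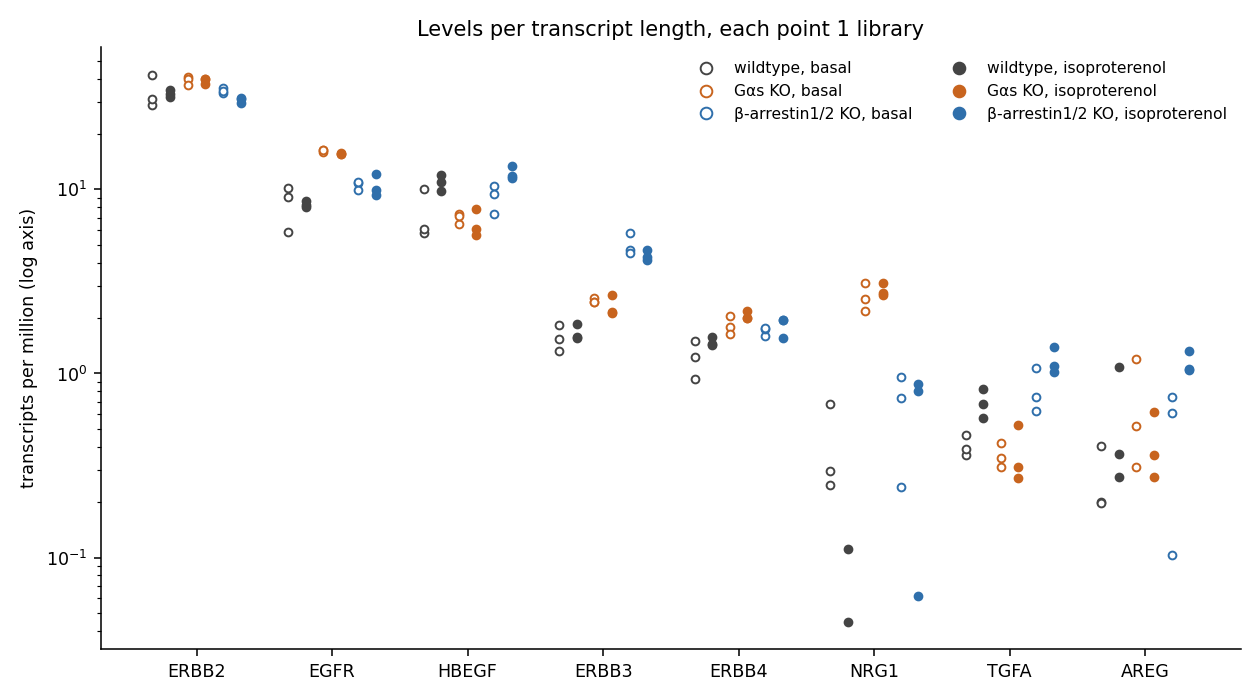
Levels per transcript length of the 8 expressed members in TPM, on a log axis, with 1 point per library, open for basal and filled for isoproterenol. ERBB2 lies highest in every group, and NRG1 spans the widest range between lines, with 1 isoproterenol-treated wildtype library at 0 and therefore not drawn. EREG is not drawn.

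The summed TPM of the 4 receptors was 45.1 ± 4.8 (SD, n = 3) in basal wildtype cells, 51.7 ± 1.9 in basal β-arrestin1/2 KO cells and 59.7 ± 2.1 in basal Gαs KO cells. Of this sum ERBB2 took 74.8 ± 7.3% in basal wildtype cells, 66.6 ± 1.5% in basal β-arrestin1/2 KO cells and 65.5 ± 1.2% in basal Gαs KO cells. The basal wildtype libraries were spread from 68.7 to 82.9%, and the highest was the library with the high GC content. EGFR took 27.2 ± 1.3% in basal Gαs KO cells, where its lowest library was at 26.5% and the highest basal wildtype library at 24.1%. ERBB3 took 9.66 ± 1.12% in basal β-arrestin1/2 KO cells against 3.47 ± 0.33% in wildtype and 4.18 ± 0.09% in Gαs KO cells. These shares are a description of transcripts and were not tested.

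**Figure D2:**
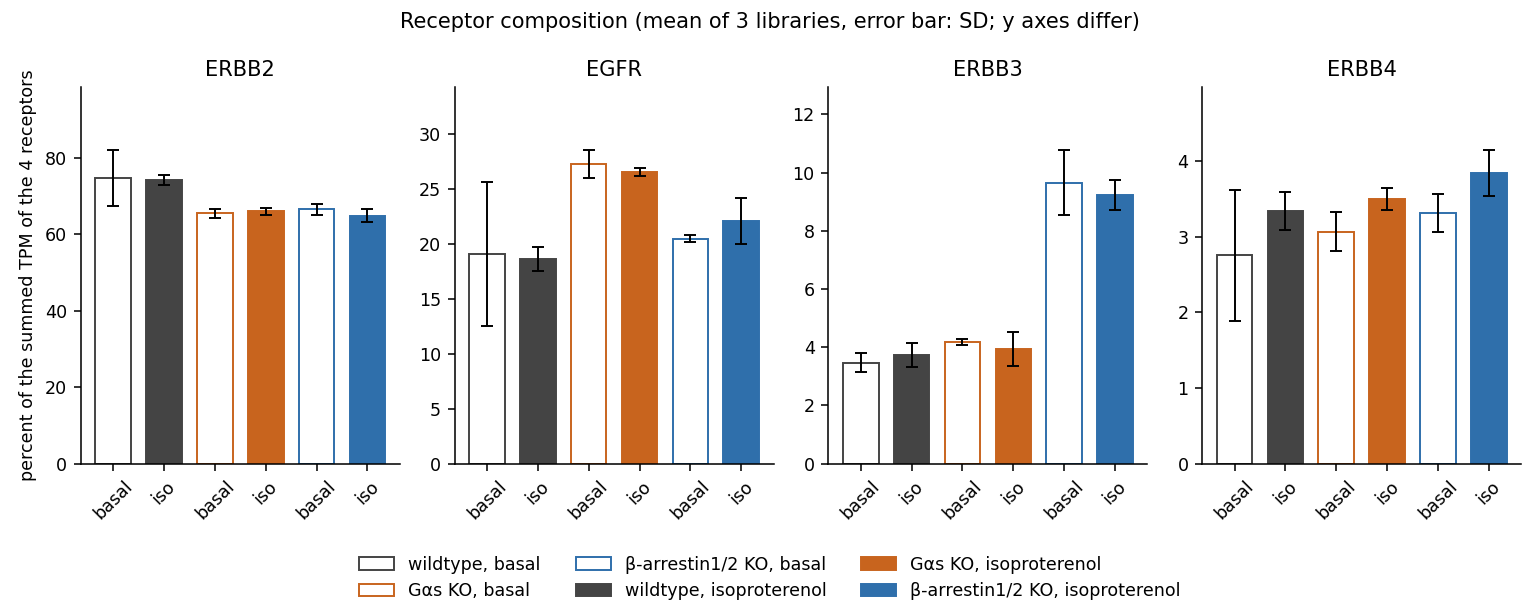
Share of each receptor in the summed TPM of the 4 receptors, as the mean of 3 libraries with SD, for basal (open) and isoproterenol (filled) groups of the 3 lines. EGFR takes 27.2% in basal Gαs KO cells and ERBB3 9.66% in basal β-arrestin1/2 KO cells, and the isoproterenol bars lie near the basal bar of the same line.

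Isoproterenol changed none of the 8 tested members past the threshold in any cell line. Every response below is on the log2 scale, isoproterenol minus basal, from 1 edgeR fit over all 18 libraries, and a gene was called at an adjusted p under 0.05 over all 15519 genes. In wildtype cells 0 of 8 members were called against 0.464% of all genes, in β-arrestin1/2 KO cells 0 of 8 against 1.13%, and in Gαs KO cells 0 of 8 against 0%. At an unadjusted p under 0.05, edgeR listed 3 members in wildtype cells (HBEGF, TGFA and NRG1) against 10.5% of all genes, 1 in β-arrestin1/2 KO cells (HBEGF) against 8.31%, and 0 in Gαs KO cells against 1.05%. DESeq2's Wald test called 1 member, NRG1, in wildtype cells against 1.25% of the genes it tested, and 0 members in the β-arrestin1/2 KO (1.83%) and Gαs KO lines (0.0335%). The median response of the members was 0.12 for the wildtype line, -0.03 for Gαs KO and 0.10 for β-arrestin1/2 KO, beside -0.0022, -0.0011 and -0.0083 over all genes. Without the first basal wildtype library edgeR again called 0 of 8 members in each response, while the share of all genes called was 1.1% for the wildtype line, 0% for Gαs KO and 11.7% for β-arrestin1/2 KO.

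HBEGF, the heparin-binding ligand of EGFR and ERBB4, had the highest level of the ligands. In wildtype cells it was at 7.73, 11.5 and 7.07 CPM at basal and at 13.6, 12.6 and 11.6 after isoproterenol. The lowest treated library thus lay just above the highest basal one. The response was 0.52 (SE 0.18, 95% interval 0.13 to 0.91), a 1.44-fold difference with an adjusted p of 0.36 (edgeR), and 0.44 with an adjusted p of 0.34 (edgeR) without the first basal library. Over the 18 fits without a library this response ran from 0.39 to 0.77, and its adjusted p from 0.057 to 0.67 (edgeR). In β-arrestin1/2 KO cells the basal values were 7.73, 11.4 and 10.1 and the treated values 15.0, 12.7 and 13.6 CPM. The groups again did not overlap, and the response was 0.50 (SE 0.18, interval 0.11 to 0.88, adjusted p = 0.39, edgeR), or 0.49 (adjusted p = 0.072, edgeR) without the first basal wildtype library. In Gαs KO cells basal values of 7.17, 8.23 and 7.96 overlapped treated values of 6.34, 8.64 and 6.95, and the response was -0.09 (SE 0.19, interval -0.49 to 0.30).

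TGFA, another ligand of EGFR, was counted 10 to 49 times per library. Its wildtype values were 1.03, 0.699 and 0.760 CPM at basal and 1.59, 1.32 and 1.15 after isoproterenol. These did not overlap, and the response was 0.70 (SE 0.32, interval 0.02 to 1.37, adjusted p = 0.47, edgeR), or 0.88 (adjusted p = 0.31, edgeR) without the first basal library. In β-arrestin1/2 KO cells the values of 1.32, 1.16 and 1.93 at basal overlapped those of 1.91, 2.59 and 2.12 after isoproterenol, with a response of 0.59 (SE 0.30, interval -0.05 to 1.23, adjusted p = 0.65, edgeR). In Gαs KO cells basal values of 0.780, 0.588 and 0.656 lay within the treated range of 0.511 to 0.972 CPM, and the response was 0.04 (SE 0.33).

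AREG, an EGFR ligand whose promoter window held a full CRE, was near the limit of detection. Its counts were 5, 2 and 2 in basal wildtype libraries and 11, 3 and 4 after isoproterenol, so the groups overlapped. In β-arrestin1/2 KO cells it was counted 1, 10 and 6 times at basal and 15, 11 and 11 times after isoproterenol. Every treated library was above every basal one there, but the response of 1.23 had an SE of 0.66 and an interval of -0.17 to 2.63 (adjusted p = 0.67, edgeR). In Gαs KO cells 6, 14 and 4 counts at basal overlapped 4, 3 and 6 counts after isoproterenol. Its interval ran from -0.68 to 2.55 in wildtype cells, which holds the β-arrestin1/2 KO estimate of 1.23, so an increase of that size is not excluded. The wildtype estimate was 1.45 (adjusted p = 0.53, edgeR) without the first basal library. EREG, a ligand of EGFR and ERBB4, was counted 0, 0 and 0 times in basal and 4, 2 and 0 times in treated wildtype libraries, with 0 to 6 counts elsewhere, and no fold is given.

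NRG1, the neuregulin that binds ERBB3 and ERBB4, had the response estimate with the largest SE of the members in wildtype cells. In wildtype cells it was counted 34, 10 and 12 times at basal and 0, 5 and 2 times after isoproterenol, or 1.85, 0.583 and 0.702 against 0, 0.265 and 0.109 CPM. Every treated library was below every basal one, and the first basal library, the one with the high GC content, was the highest. The response was -2.99 (SE 0.92, interval -4.93 to -1.04, adjusted p = 0.27, edgeR), and -2.28 (adjusted p = 0.31, edgeR) without that library. Over the 18 fits without a library it ran from -4.09, without the second treated wildtype library, to -2.28, and its adjusted p from 0.084 to 0.6 (edgeR). DESeq2 gave -3.06 with an adjusted p of 0.034, so the call depended on the tool, and the main edgeR test did not make it. In β-arrestin1/2 KO cells the counts were 9, 51 and 28 at basal and 3, 37 and 33 after isoproterenol, with a response of -0.10 (SE 0.66). In Gαs KO cells they were 116, 100 and 158 at basal and 137, 118 and 102 after isoproterenol, with a response of 0.13 (SE 0.58).

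The responses of the receptors were smaller and their intervals narrower. EGFR was at 32.1, 47.7 and 43.5 CPM in basal and 40.5, 38.8 and 38.9 in treated wildtype libraries, and its response was -0.06 (SE 0.12, interval -0.30 to 0.19). Its intervals ran from -0.20 to 0.29 in β-arrestin1/2 KO cells and from -0.29 to 0.19 in Gαs KO cells. For ERBB2, the partner receptor, the responses were -0.12 (interval -0.41 to 0.17) in wildtype cells, -0.10 (-0.39 to 0.18) in β-arrestin1/2 KO cells and -0.0003 (-0.29 to 0.28) in Gαs KO cells. Without the first basal library the wildtype estimates were 0.15 for ERBB2 (adjusted p = 0.27), -0.21 for EGFR (adjusted p = 0.23), 0.22 for ERBB3 (adjusted p = 0.6) and 0.13 for ERBB4 (adjusted p = 0.74, edgeR). For ERBB3 they were 0.01, -0.13 and -0.10, and the widest interval, that of wildtype cells, ran from -0.37 to 0.38. ERBB4 was at 5.61, 7.81 and 6.49 CPM in basal and 8.17, 7.52 and 7.80 in treated wildtype libraries, and its response was 0.24 (SE 0.14, interval -0.06 to 0.54), with 0.18 in Gαs KO and 0.15 in β-arrestin1/2 KO cells. In the fit of all libraries the 12 receptor intervals all held 0 and lay between -0.49 and 0.55.

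**Figure D3:**
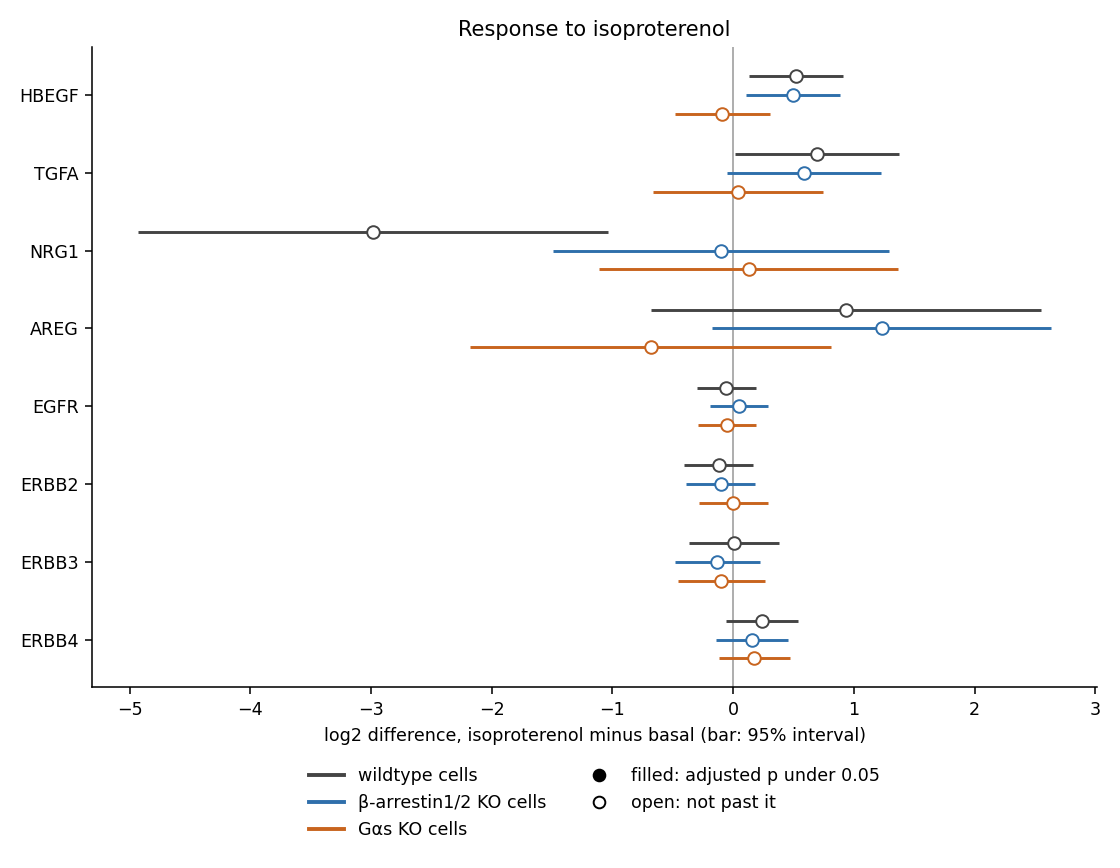
Response to isoproterenol of the 8 tested members as a log2 difference with its 95% interval, for the 3 lines. All points are open, since none had an adjusted p under 0.05. The HBEGF intervals of wildtype and β-arrestin1/2 KO cells and the TGFA interval of wildtype cells lie above 0. The NRG1 interval of wildtype cells lies below 0. The HBEGF interval of Gαs KO cells spans 0, and the receptor intervals are narrow around 0. The intervals are not adjusted for the number of genes tested.

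**Figure D4:**
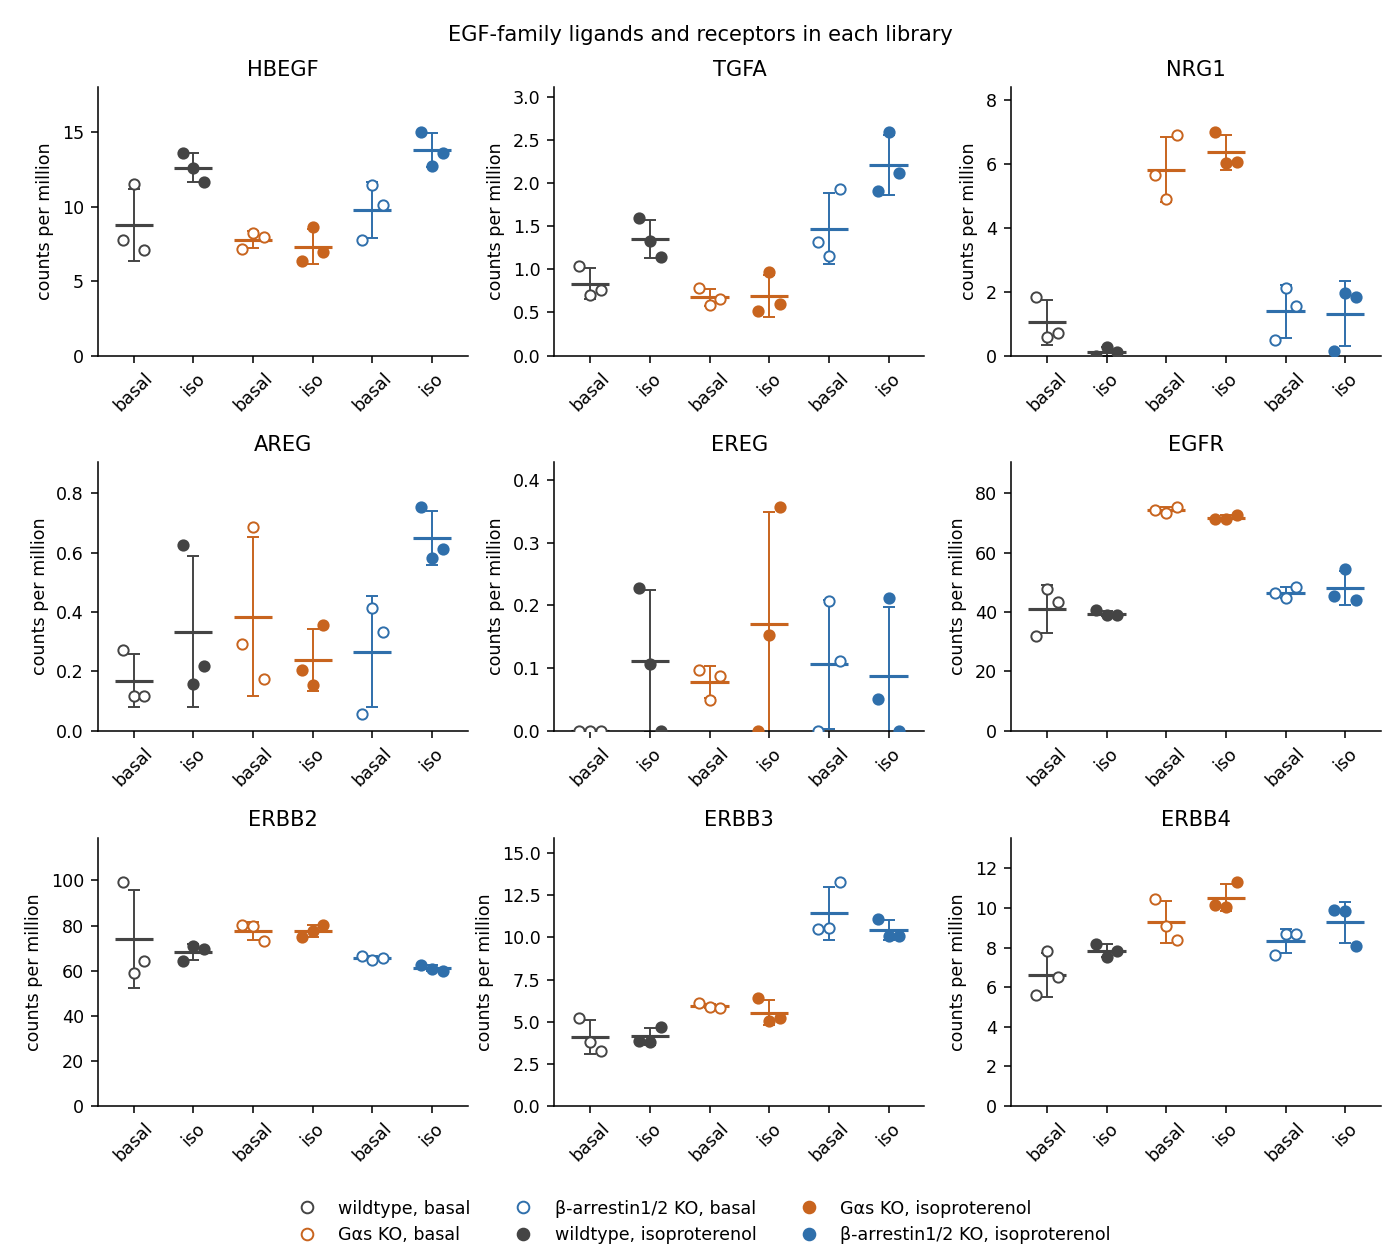
CPM of the 9 members, with 1 point per library (open for basal, filled for isoproterenol) and the mean and SD of 3 libraries, for wildtype, Gαs KO and β-arrestin1/2 KO cells. Vertical axes differ between panels. EGFR is highest in both Gαs KO groups, ERBB3 in both β-arrestin1/2 KO groups, and EREG never exceeds 0.356.

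The differences between the responses of the lines were tested directly as interaction terms, and pairs of differences share the responses they are built from. For β-arrestin1/2 KO minus wildtype, 0 of 8 members were called against 0.168% of all genes, with 1 member (NRG1) at an unadjusted p under 0.05 against 5.57% and 0 by DESeq2 against 0.619%. For Gαs KO minus wildtype, 0 of 8 were called against 0.161%, with 2 (HBEGF and NRG1) at an unadjusted p under 0.05 against 4.63% and 0 by DESeq2 against 0.327%. For β-arrestin1/2 KO minus Gαs KO, 0 of 8 were called against 0.406%, with 1 (HBEGF) at an unadjusted p under 0.05 against 4.82% and 0 by DESeq2 against 0.769%. These shares are those of edgeR except where DESeq2 is named. Without the first basal wildtype library edgeR called 0 of 8 members in each difference, against 8.25, 0.418 and 2.68% of all genes in the same order.

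The HBEGF response was lower on the log2 scale in Gαs KO than in wildtype cells, a difference of -0.61 (SE 0.26, interval -1.17 to -0.06, adjusted p = 0.89, edgeR). The β-arrestin1/2 KO response exceeded the Gαs KO response by 0.59 (SE 0.26, interval 0.03 to 1.14, adjusted p = 0.98, edgeR). Between β-arrestin1/2 KO and wildtype cells the difference was -0.03 (SE 0.26, interval -0.57 to 0.52), which leaves room for differences of up to about that size in either direction. With the first basal wildtype library left out, these HBEGF differences from wildtype were -0.53 (adjusted p = 0.63) for Gαs KO and 0.06 (adjusted p = 0.93, edgeR) for β-arrestin1/2 KO cells. For NRG1 the Gαs KO response exceeded the wildtype one by 3.11 (SE 1.10, adjusted p = 0.89, edgeR) and by 2.41 without the first basal wildtype library. The β-arrestin1/2 KO response exceeded it by 2.89 (SE 1.14, adjusted p = 0.73, edgeR) and by 2.17 without that library. Both were largest without the second treated wildtype library, at 4.22 and 3.99, and were called in none of the fits without a library. The receptor response differences had estimates between -0.14 and 0.12 in the fit of all libraries. When the first basal wildtype library was left out, they were -0.25 for ERBB2 (adjusted p = 0.058), 0.26 for EGFR (adjusted p = 0.13) and -0.36 for ERBB3 (adjusted p = 0.33, edgeR) between β-arrestin1/2 KO and wildtype cells.

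At basal the lines differed in 5 of the 8 tested members, in a background in which a large share of all genes differed. In β-arrestin1/2 KO cells 1 of 8 members was called higher than in wildtype cells, beside 33.6% of all genes (15.7% higher and 17.9% lower). Between Gαs KO and wildtype cells 4 of 8 were called, all higher, against 31.3% (14.2% higher and 17.1% lower). Between the KO lines 4 of 8 were called, 2 higher and 2 lower in β-arrestin1/2 KO cells, against 26.2% (13.8% higher and 12.4% lower). The median difference of the members was 0.37, 0.51 and -0.20 on the log2 scale in these comparisons, beside 0.02, 0.0070 and -0.0044 over all genes. The comparisons share basal libraries and are not independent. Without the first wildtype library the members called were 2, 5 and 5 of 8 in the same order, against 46.7, 45.9 and 45.3% of all genes. In bulk RNA a difference in the number of cells that express a gene and one in the amount per cell cannot be told apart.

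EGFR, the receptor of HBEGF, TGFA, AREG and EREG, was at 74.2, 73.3 and 75.3 CPM in basal Gαs KO libraries, 46.3, 44.6 and 48.4 in basal β-arrestin1/2 KO libraries and 32.1, 47.7 and 43.5 in basal wildtype libraries. The Gαs KO libraries were above all others, and the other lines overlapped. Against wildtype the Gαs KO difference was 0.86 (SE 0.11, interval 0.61 to 1.10), 1.81-fold, with an adjusted p of 3.4e-05 (edgeR), and 0.70 (adjusted p = 8.2e-07, edgeR) without the first wildtype library. β-arrestin1/2 KO cells were lower than Gαs KO cells at a log2 difference of -0.68 (SE 0.11, adjusted p = 3.0e-04, edgeR). Both calls were kept in all 9 alternatives and in each of the 18 fits without a library. The β-arrestin1/2 KO value differed from the wildtype one by 0.18 (interval -0.07 to 0.42, adjusted p = 0.26, edgeR), and by 0.30 (adjusted p = 0.048, edgeR) without the second wildtype library, where the call was made. Without the first wildtype library it was 0.03 (adjusted p = 0.77, edgeR). The isoproterenol groups had the same order, with 71.2 to 72.7 CPM in Gαs KO, 44.0 to 54.5 in β-arrestin1/2 KO and 38.8 to 40.5 in wildtype cells.

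ERBB3, the receptor of NRG1 with little kinase activity, was at 10.5, 10.5 and 13.3 CPM in basal β-arrestin1/2 KO libraries, 6.10, 5.88 and 5.82 in Gαs KO and 5.22, 3.79 and 3.27 in wildtype libraries. The 3 ranges did not overlap. β-arrestin1/2 KO cells exceeded wildtype cells by 1.48 (SE 0.17, interval 1.11 to 1.84), 2.78-fold, with an adjusted p of 9.1e-06 (edgeR), and by 1.7 (adjusted p = 3.2e-07, edgeR) without the first wildtype library. They exceeded Gαs KO cells by 0.94 (SE 0.17, adjusted p = 5.2e-04, edgeR). Both calls were kept in all 9 alternatives and all 18 fits without a library. Gαs KO cells exceeded wildtype cells by 0.53 (SE 0.17, adjusted p = 0.029, edgeR), and this call was lost without the second (adjusted p = 0.072) or the third (0.11) wildtype library or the first (0.077), second (0.062) or the third (0.061) Gαs KO library (edgeR), but not without the first wildtype library, where the value was 0.75 (adjusted p = 0.0014, edgeR). It was also lost with no filter on low counts (adjusted p = 0.065) and with the libraries of the 2 groups alone (adjusted p = 0.19, edgeR).

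ERBB4, the receptor of NRG1, HBEGF and EREG, was at 10.4, 9.11 and 8.36 CPM in basal Gαs KO, 7.62, 8.68 and 8.67 in β-arrestin1/2 KO and 5.61, 7.81 and 6.49 in wildtype libraries. Gαs KO libraries were all above the wildtype ones, by 0.49 (SE 0.14, interval 0.19 to 0.79, adjusted p = 0.015, edgeR), and by 0.38 (adjusted p = 0.039, edgeR) without the first wildtype library. The call was lost without the first Gαs KO library (0.39, adjusted p = 0.078, edgeR), with offsets for GC content (0.30, adjusted p = 0.094) and with the libraries of the 2 groups alone (adjusted p = 0.17). Its transcripts had the lowest GC content of the receptors, 39.8%, against 59.9% for ERBB2. The β-arrestin1/2 KO value differed from the wildtype one by 0.33 (adjusted p = 0.086, edgeR), and the call was made with upper-quartile scaling (adjusted p = 0.043), with protein-coding transcripts only (adjusted p = 0.031) and without the second wildtype library (0.47, adjusted p = 0.021). Over the 9 alternatives this ERBB4 difference ran from 0.14, with GC offsets, to 0.52 and its adjusted p from 0.031 to 0.43, and without the first wildtype library it was 0.23 (adjusted p = 0.21, edgeR).

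ERBB2 passed the test in none of the 3 basal comparisons. Its values were 99.2, 58.9 and 64.3 CPM in basal wildtype libraries, 80.3, 79.7 and 73.0 in Gαs KO and 66.4, 64.6 and 65.6 in β-arrestin1/2 KO libraries. The first wildtype library was the highest of all 18 and set the spread of that group. With it the Gαs KO difference from wildtype was 0.07 (interval -0.22 to 0.35, adjusted p = 0.75, edgeR). Without it the difference was 0.33 (adjusted p = 1.7e-04, edgeR), and with offsets for GC content 0.18 (adjusted p = 0.0048, edgeR). β-arrestin1/2 KO libraries were all below Gαs KO libraries, at a log2 difference of -0.24 (SE 0.13, adjusted p = 0.21, edgeR), and this passed without the first wildtype library (-0.24, adjusted p = 0.0011), with GC offsets (-0.24, adjusted p = 5.0e-04) and with the libraries of the 2 groups alone (-0.24, adjusted p = 0.003, edgeR).

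Among the ligands, NRG1 was called higher in basal Gαs KO cells, at 5.66, 4.90 and 6.91 CPM against 1.85, 0.583 and 0.702 in wildtype and 0.493, 2.11 and 1.55 in β-arrestin1/2 KO libraries. The Gαs KO range lay apart from the other ranges, which overlapped. The difference from wildtype was 2.46 (SE 0.65, interval 1.08 to 3.85), 5.51-fold, with an adjusted p of 0.0087 (edgeR), and 3.17 (adjusted p = 0.0015, edgeR) without the first wildtype library. β-arrestin1/2 KO cells were below Gαs KO cells at a log2 difference of -2.05 (SE 0.63, adjusted p = 0.023, edgeR). The call against wildtype was kept in each of the 18 fits without a library, whereas that between the KO lines was lost without the first (adjusted p = 0.054) or the third (0.074) Gαs KO or the first (0.098) or the third (0.062) β-arrestin1/2 KO library (edgeR). The isoproterenol groups showed the same separation, with 6.03 to 7.0 CPM in Gαs KO, 0.151 to 1.96 in β-arrestin1/2 KO and 0 to 0.265 in wildtype cells.

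TGFA was called between the KO lines, with 1.32, 1.16 and 1.93 CPM in basal β-arrestin1/2 KO against 0.780, 0.588 and 0.656 in Gαs KO libraries. These ranges did not overlap, and the difference was 1.11 (SE 0.32, interval 0.43 to 1.79, adjusted p = 0.016, edgeR). It was lost without the second (adjusted p = 0.065) or the third (0.055) Gαs KO library and without the third β-arrestin1/2 KO library (0.87, adjusted p = 0.088, edgeR). β-arrestin1/2 KO libraries were also above all wildtype libraries, by 0.81 (SE 0.32, adjusted p = 0.061, edgeR), and by 1.00 (adjusted p = 0.036, edgeR) without the first wildtype library. When only genes counted 10 times or more per library were tested, this difference was 0.82 (adjusted p = 0.034, edgeR). Against wildtype HBEGF differed by 0.15 (interval -0.24 to 0.55) in β-arrestin1/2 KO cells, by -0.17 (-0.57 to 0.22) in Gαs KO cells and by 0.33 (-0.06 to 0.72) between the KO lines, and the groups overlapped each time. AREG, with intervals of -0.96 to 2.29, -0.44 to 2.71 and -1.92 to 0.98 in these comparisons, was called in none. Without the first wildtype library the HBEGF differences from wildtype were 0.08 (adjusted p = 0.78) in β-arrestin1/2 KO and -0.26 (adjusted p = 0.31) in Gαs KO cells, and those of AREG 1.19 (adjusted p = 0.33) and 1.65 (adjusted p = 0.16, edgeR).

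**Figure D5:**
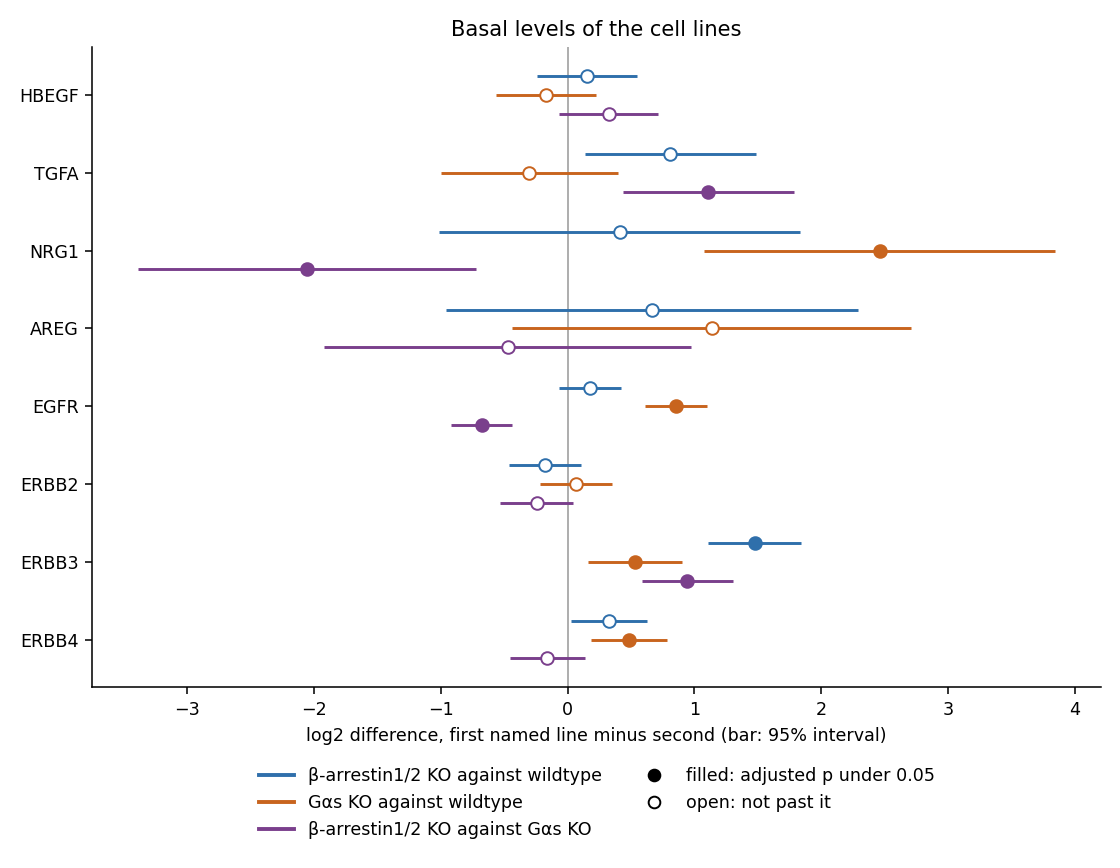
Basal differences between the lines for the 8 tested members, as log2 differences with 95% intervals, filled where the adjusted p was under 0.05. EGFR, ERBB3, ERBB4 and NRG1 are filled for Gαs KO against wildtype, ERBB3 for β-arrestin1/2 KO against wildtype, and EGFR, NRG1, ERBB3 and TGFA between the KO lines.

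Over all libraries together, each of the 8 tested members had 1 transcript with most of its counts, except ERBB2, whose leading transcript held 48.6%, with 6 transcripts in all at 5% or more. The leading transcript held 99.2% of the EGFR counts, 99.6% of those of HBEGF, 72.4% of those of NRG1 and 74.9% of those of ERBB3. Over the 6 groups the mean share of the leading transcript ran from 0% in treated wildtype to 84.4% in treated Gαs KO cells for NRG1, and from 46.6% in treated Gαs KO to 93.2% in treated β-arrestin1/2 KO cells for ERBB3. NRG1 had 7 counts in total in treated wildtype cells, and the ERBB3 share ran from 0 to 91.5% within the treated Gαs KO libraries. The leading ERBB4 transcripts, of 12084 and 12136 bases, held 58.7 and 28.4% of its counts, and their mean shares moved between 35.4 and 79.9% and between 11.3 and 56.3% over the 6 groups. Libraries of 1 group also differed widely: in basal wildtype cells the share of the 12084-base transcript ran from 0 to 72.4%. How counts are split between such similar transcripts is uncertain, and the gene sums above do not depend on that split.

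Of the other genes of the pathway, in lists of 6 further ligands, 11 genes of ligand processing, 10 receptor attenuators and 23 genes of signal relay, none was called in any response or response difference by edgeR with all 18 libraries. Of the further ligands, 4 were tested. EGF, the name-giving ligand of EGFR, was higher in basal Gαs KO than in wildtype cells by 1.25 (SE 0.31, adjusted p = 0.0057, edgeR), at 4.21 ± 0.14 against 1.76 ± 0.34 CPM (SD). It was lower in β-arrestin1/2 KO than in Gαs KO cells at a log2 difference of -1.60 (SE 0.31, adjusted p = 0.0011, edgeR). NRG2, a further neuregulin, fell in Gαs KO against wildtype cells, at a log2 difference of -1.52 (SE 0.27, adjusted p = 4.9e-04, edgeR), and was higher in β-arrestin1/2 KO than in Gαs KO cells by 0.90 (adjusted p = 0.022, edgeR). Without the first wildtype library the Gαs KO differences from wildtype were 1.41 for EGF (adjusted p = 0.0031) and -1.26 for NRG2 (adjusted p = 0.0011, edgeR). No further ligand was called between β-arrestin1/2 KO and wildtype cells.

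Of the ligand processing genes 10 were tested. In basal β-arrestin1/2 KO against wildtype cells 3 were called higher (ADAM12, ADAM19 and CD9) and 2 lower (ADAM15 and NRDC), beside 33.6% of all genes. In Gαs KO against wildtype cells 0 were higher and 1 lower (CD9), beside 31.3%. Between the KO lines 2 were higher in β-arrestin1/2 KO cells (ADAM12 and CD9) and 1 lower (ADAM15), beside 26.2%. CD9, a tetraspanin that associates with membrane-bound HBEGF, was at 40.1 ± 0.5 CPM in Gαs KO, 88.4 ± 2.8 in β-arrestin1/2 KO and 62.5 ± 3.4 in wildtype cells at basal. It was lower in Gαs KO than in wildtype cells at a log2 difference of -0.64 (SE 0.07, adjusted p = 3.2e-06, edgeR). ADAM12, a metalloprotease that can cut HBEGF, was higher in β-arrestin1/2 KO than in wildtype cells by 1.18 (SE 0.36, adjusted p = 0.018, edgeR) and than in Gαs KO cells by 2.13 (adjusted p = 4.4e-04, edgeR). ADAM15, a further metalloprotease, was lower in β-arrestin1/2 KO than in wildtype cells at a log2 difference of -0.78 (adjusted p = 0.0018, edgeR). Without the first wildtype library these differences from wildtype were -0.62 for CD9, 0.84 for ADAM12 (adjusted p = 0.042) and -0.43 for ADAM15 (edgeR). Of 11 processing genes tested without that library, 4 were then called higher (ADAM12, ADAM19, CD9 and RHBDF1) and 2 lower (ADAM15 and NRDC) in β-arrestin1/2 KO against wildtype cells, beside 46.7% of all genes. In Gαs KO against wildtype cells 1 was higher (ADAM19) and 3 lower (ADAM12, CD9 and NRDC), beside 45.9%, with ADAM12 at a log2 difference of -1.29 (adjusted p = 0.0051, edgeR). Between the KO lines 4 were higher (ADAM12, ADAM17, ADAM19 and CD9) and 2 lower (ADAM15 and NRDC) in β-arrestin1/2 KO cells, beside 45.3%. ADAM17, the main sheddase of TGFA and AREG, was called in no basal comparison of all libraries and stayed between 40.0 and 61.0 CPM, but without that library it was higher in β-arrestin1/2 KO than in Gαs KO cells by 0.22 (adjusted p = 0.011, edgeR).

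All 10 attenuators were tested. In β-arrestin1/2 KO against wildtype cells 3 were called higher (CBLB, ERRFI1 and LRIG2) and 1 lower (LRIG3), in Gαs KO against wildtype cells 4 higher (CBLB, ERRFI1, LRIG2 and RNF41) and 3 lower (LRIG1, LRIG3 and PTPN1), and between the KO lines 2 higher (LRIG1 and PTPN1) and 2 lower (LRIG3 and RNF41). Of all genes, 33.6, 31.3 and 26.2% were called in the same order. Without the first wildtype library the attenuator counts were 4 higher and 2 lower, 4 higher and 4 lower, and 3 higher and 3 lower. The shares of all genes were then 46.7, 45.9 and 45.3%. LRIG3, of a family of membrane proteins that bind ERBB receptors, was lower in β-arrestin1/2 KO than in wildtype cells at a log2 difference of -0.80 (SE 0.07, adjusted p = 6.3e-07, edgeR). PTPN1, a phosphatase of EGFR, was lower in Gαs KO than in wildtype cells at a log2 difference of -0.60 (SE 0.06, adjusted p = 2.0e-06, edgeR). Of the 23 relay genes, 2 were called higher (GAB1 and PIK3R1) and 3 lower (ARAF, MAP2K1 and STAT5B) in β-arrestin1/2 KO against wildtype cells, beside 33.6% of all genes. In Gαs KO against wildtype cells 3 were higher and 2 lower, beside 31.3%. Between the KO lines 1 was higher and 2 were lower in β-arrestin1/2 KO cells, beside 26.2%. Without the first wildtype library the relay counts were 8 higher and 8 lower, 5 higher and 9 lower, and 4 higher and 6 lower, beside 46.7, 45.9 and 45.3%. GAB1, an adaptor, was higher in β-arrestin1/2 KO than in wildtype cells by 0.57 (adjusted p = 0.038, edgeR) and by 0.29 (adjusted p = 0.036, edgeR) without the first wildtype library. ARAF, a RAF kinase, was lower at a log2 difference of -0.75 (adjusted p = 3.7e-04, edgeR) and at a log2 difference of -0.51 without it. PLCG1, phospholipase C gamma, was lower in Gαs KO than in wildtype cells at a log2 difference of -0.55 (adjusted p = 0.0085, edgeR) and at a log2 difference of -0.25 without it. The list medians lay between -0.29 and 0.28 in the basal comparisons, beside 0.02, 0.0070 and -0.0044 over all genes.

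The list counts depended on the first basal wildtype library. Without it, the β-arrestin1/2 KO response had 2 processing genes called higher (ADAM10 and NRDC), 2 attenuators higher (ERRFI1 and SOCS4) and 1 lower (LRIG2), and 4 relay genes higher and 3 lower, in a background of 11.7% of all genes. ERRFI1, a feedback inhibitor of EGFR, then had a response of 0.31 (adjusted p = 0.00031, edgeR) and NRDC, which enhances the shedding of HBEGF, one of 0.17 (adjusted p = 0.0064, edgeR). The response of ERRFI1 in β-arrestin1/2 KO cells then exceeded that in wildtype cells by 0.27 (adjusted p = 0.027, edgeR) and that in Gαs KO cells by 0.35 (adjusted p = 0.0065, edgeR). No list gene was called in the wildtype or the Gαs KO response without it.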

How the data were processed

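RNA-Seq (paired-end, 150 bp) had been made from poly(A)-selected RNA of 18 libraries. The authors deposited expected counts per transcript from Salmon 1.7.0, not normalized for depth or length; the transcript index is not given in the sources used here, and 0 sample columns were left unused. Of 184844 transcripts, 161798 were matched by Ensembl identifier to GENCODE release 29 (GRCh38), which kept 92.9 to 93.7% of the counts of a library, and gene sums were rounded. The median library total was 20419460, and counting error is largest for members with few counts.

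Tests used R 4.3.3 with edgeR 4.0.16 (TMM scaling, filterByExpr, a quasi-likelihood model with 6 group coefficients) and Benjamini-Hochberg adjustment over 15519 genes, in 9 comparisons. DESeq2 1.42.0, limma 3.58.1 (loaded by edgeR), Python 3.11.15, numpy 2.4.6, pandas 2.3.3 and matplotlib 3.10.9 were also used. Standard errors were the log2 difference divided by the square root of F. CPM used TMM factors, and TPM the count-weighted transcript length of each gene. The pipeline was tested on simulated data. Some results for genes of the lists are not reported here.

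The members, lists and motifs were chosen with earlier results of these data known. Named genes were all members and, of each list, those called in a response or difference and the 2 called with the largest basal difference. ADAM17, ERRFI1, NRDC and the list genes given without a value fall outside this rule and were named after their values were seen. Genes of like pattern were to be named only for members called in a response, of which there were none. The planned comparison of EGF modules was not made, since no protein sequences were at hand. Alternatives were DESeq2's Wald test, 2 other scalings of edgeR (DESeq2 size factors or upper quartile), other count filters, the libraries of the groups compared alone, a replicate block, offsets for GC content (lowess, span 0.3), protein-coding transcripts alone and each of the 18 libraries left out. The labels do not say that a replicate number marks a shared day, and same-numbered libraries of different groups were not correlated (r of their deviations from the group means from -0.0993 to 0.0766), so libraries were treated as unpaired.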

Additional observations from a re-analysis of the deposited data

How the results depend on the processing

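The counts of called members in the 3 responses and the 3 response differences were 0 under each of the 9 alternatives and each of the 18 left-out libraries, except that DESeq2's Wald test called 1 (NRG1) in wildtype cells. In basal β-arrestin1/2 KO against wildtype cells the count of 1 became 2 with upper-quartile scaling, with at least 10 counts in every library and with protein-coding transcripts alone, and ranged from 1 to 3 when a library was left out (2 without the first and 3 without the second basal wildtype library). In basal Gαs KO against wildtype cells the count of 4 became 2 with the libraries of the groups compared alone, and ranged from 2 to 5 when a library was left out (2 without the first Gαs KO and 5 without the first wildtype library). Between the KO lines at basal it ranged from 3 to 5 over the alternatives and from 2 to 5 when a library was left out (2 without the third Gαs KO or the third β-arrestin1/2 KO library). With a replicate block the counts stayed at 0 in each response and response difference and at 1, 4 and 4 at basal; the libraries share only a number, and the block changed no call of a member.

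Of 1919 values of single members under an alternative, 17 lost and 12 gained a call, and 0 reversed a called direction. A further 87 changed sign while called in neither fit, 70 of them when a library was left out, and have no direction. AREG and NRG1 were not tested with at least 10 counts in every library, and AREG had no adjusted p in part of the comparisons by DESeq2 or with the libraries of the groups compared alone. Why calls changed was not tested. For the order of the members, 6 of 54 ranks changed with the longest transcript as length. Depth limits AREG and EREG in every line, and TGFA, which had 10 to 49 counts per library. It also limits NRG1 in wildtype cells, with 34 or fewer counts per library, and in β-arrestin1/2 KO cells, with 3 to 51.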
